A study of Mus musculus with 12 samples.

Results

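Ba/F3 lines carrying the BCR-ABL1 fusion were compared with Ba/F3 lines carrying the empty vector, named MSCV, across all genes with enough reads to test. The members were 4 BCR-ABL1 libraries and 4 MSCV libraries, taken by their sample names from the 12 libraries of the study. Ba/F3 cells are mouse pro-B cells that depend on the cytokine interleukin-3 (IL-3), and the submitters' design text gives the 4 lines of a group as biologically independent of each other. MSCV lines were kept in 0.5 ng/ml mouse IL-3, while BCR-ABL1 lines grew without it, so the fusion and the missing cytokine cannot be told apart in any value below. All lines were untreated and growing exponentially when pelleted and frozen. The sources used here do not give whether a line was 1 clone or a pool, or how much fusion protein it made. The remaining group of 4 SFPQ-ABL1 lines, also grown without IL-3, entered the estimate of the spread, and its levels are quoted only beside single genes.

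BCR-ABL1 joins the breakpoint cluster region gene to the ABL1 tyrosine kinase, which is then active without a stimulus, and it is the fusion of the Philadelphia chromosome in chronic myeloid and acute lymphoblastic leukaemia. In Ba/F3 cells it takes the place of the IL-3 receptor, which normally signals through JAK2 and STAT5, through RAS and ERK, and through PI3K. Dividing cells must supply amino acids, charged tRNAs, ribosomes, nucleotides and membrane lipids. Textbook regulators of these supplies are ATF4 for amino acid genes, MYC for ribosome production, SREBP factors for sterols and fatty acids, and TFEB for lysosomes.

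Short promoter stretches are shown first for genes of 4 groups described below, because known factors of these pathways bind short motifs that can be read in them. The stretches come from RefSeq gene starts on GRCm38.p6 and are written 5′ to 3′ on the gene's own strand, with matches of the motif that a set is shown for in capitals. TTCNNNGAA is the palindrome that STAT factors bind. It occurred in 8.30% of 32851 windows running from 250 bases before to 50 bases after a start. The other shares count a gene once if any of its windows had a match, so they are not the same measure as a share of windows. By gene it was in 8.47% of tested genes and in 8.09% of genes higher with BCR-ABL1. Of 8 SOCS and PIM genes with a window 2 had it, and of the 3 of these that were higher 1 had it. Cish, a cytokine-induced inhibitor of STAT5 signalling, held 2 such matches at and just after its start, at chr9:107296649-107296678 on the plus strand.
Cish: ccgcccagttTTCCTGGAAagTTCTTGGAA
TGATGNAA, or TTNCATCA on the other strand, is the composite element of C/EBP and ATF factors such as ATF4. It occurred in 3.97% of all windows, and by gene in 2.82% of tested genes and in 4.02% of genes higher with BCR-ABL1. Of 13 cytosolic aminoacyl-tRNA synthetase genes with a window, 5 had it. Shown are the cystine transporter gene Slc7a11 (chr3:50443632-50443719, minus strand) and the alanyl- and threonyl-tRNA synthetase genes Aars (chr8:111033690-111033777, plus strand) and Tars (chr15:11399659-11399713, minus strand).
Slc7a11: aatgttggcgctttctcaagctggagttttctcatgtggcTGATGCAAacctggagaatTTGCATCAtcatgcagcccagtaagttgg
Aars: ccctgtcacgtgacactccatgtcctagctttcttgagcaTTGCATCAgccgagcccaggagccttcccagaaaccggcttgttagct
Tars: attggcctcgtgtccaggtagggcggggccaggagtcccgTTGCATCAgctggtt
The Aars stretch also holds a TTCNNNGAA match and the CACGTG motif described next, both left in lower case. The other 3 synthetase genes with a match were Iars, Yars and Gars, and 3 of 16 amino acid transporter genes with a window had one, namely Slc7a11, Slc1a4 and Slc7a7. No match lay in the windows of 15 mitochondrial synthetase genes or of 13 serine and one-carbon genes. CACGTG is the E-box bound by MYC with MAX and by other helix-loop-helix factors. It occurred in 7.15% of all windows, and by gene in 11.1% of tested genes and in 13.5% of genes higher with BCR-ABL1. It was in 8 of 39 ribosome biogenesis genes and in 3 of 14 purine synthesis genes. Of the 7 purine synthesis genes with a window that were higher, 1 had it. The examples are Rrn3 (chr16:13780449-13780529, plus strand), an initiation factor of RNA polymerase I, Nop2 (chr6:125131783-125131868, plus strand), a ribosomal RNA methyltransferase, and Atic (chr1:71557109-71557155, plus strand), the enzyme of the last steps of purine synthesis.
Rrn3: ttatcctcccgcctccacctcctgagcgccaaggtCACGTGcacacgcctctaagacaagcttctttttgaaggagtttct
Nop2: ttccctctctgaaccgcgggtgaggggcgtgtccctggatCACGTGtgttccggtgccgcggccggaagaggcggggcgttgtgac
Atic: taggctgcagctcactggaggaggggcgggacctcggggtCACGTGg
A match is a description of letters in the window, and no binding was measured.

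Each of the 8 libraries held between 66040297 and 79316348 counts in genes. Exon 9 of Abl1 (chr2:31796973-31797062), within the part of ABL1 that the fusion keeps, had the most reads of its exons over the BCR-ABL1 and SFPQ-ABL1 libraries. It was at 11.8, 9.23, 11.5 and 20.9 CPM in BCR-ABL1 lines 1 to 4 and at 0.0454 to 0.0529 CPM in the MSCV lines. CPM here are plain counts scaled to the library's total in genes. The exon was chosen by its reads in fusion lines, so its contrast with MSCV lines is a description and not a test. All levels of genes below are CPM scaled by TMM factors as well. Defining early B-cell genes were near 0 in all 8 lines: Pax5, Ebf1, Rag1 and 10 others of the 20 listed did not pass the count filter and reached at most 0.118 CPM. Of the 7 that passed, 4 were lower with BCR-ABL1 and none was higher, and their list summed to 442.0 to 559.3 CPM in MSCV lines and 358.3 to 484.0 CPM in BCR-ABL1 lines. Summed levels ran from 482.4 to 1197 against 314.0 to 476.0 CPM for 12 tested granulocyte and monocyte genes, from 1589 to 1915 against 1437 to 1808 CPM for 11 mast cell genes, from 1342 to 2173 against 938.0 to 1819 CPM for 16 erythroid and megakaryocyte genes, and from 50.5 to 275.5 against 17.9 to 68.7 CPM for 7 T and NK cell genes. Granulocyte and monocyte genes had 1 higher and 3 lower, 33.3% called against 32.1% of all genes. Mast cell genes had 2 higher and 4 lower (54.5%). Erythroid and megakaryocyte genes had 2 higher and 4 lower (37.5%), and T and NK cell genes 4 lower and none higher (57.1%). Over the alternatives the higher counts ran from 1 to 3, 1 to 3, 2 to 4 and 0 to 1 in that order. The lower counts ran from 3 to 4, 3 to 4, 2 to 6 and 2 to 5. More or fewer cells of a kind and more or less RNA per cell cannot be told apart in such bulk samples.

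The quasi-likelihood test of edgeR, with Benjamini-Hochberg adjustment, called 5522 of 17197 genes, which is 32.1%, at an adjusted p under 0.05. Of these, 2722 genes (15.8%) were higher and 2800 (16.3%) were lower with BCR-ABL1. Most changes were modest: the median size among called genes was 0.67 on the log2 scale, 770 genes were higher and 781 lower by 2-fold or more, and 980 passed when tested for a change beyond 1.5-fold. Large rises were more common than large falls, with 129 genes higher and 43 lower by 8-fold or more. The 4 BCR-ABL1 lines and the 4 MSCV lines did not overlap in 5437 of all 17197 genes tested and in 4719 of the 5522 called. The higher genes held 15.8% of the CPM in MSCV lines and 24.8% in BCR-ABL1 lines, and the lower genes held 21.5% and 12.98%. Between the BCR-ABL1 and SFPQ-ABL1 lines the same fit called 26.0% of genes. The background for the gene lists is the 32.1% of all genes tested. The lists hold mostly protein-coding genes, of which 37.7% were called, so list shares up to about that level are not raised.

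**Figure D1:**
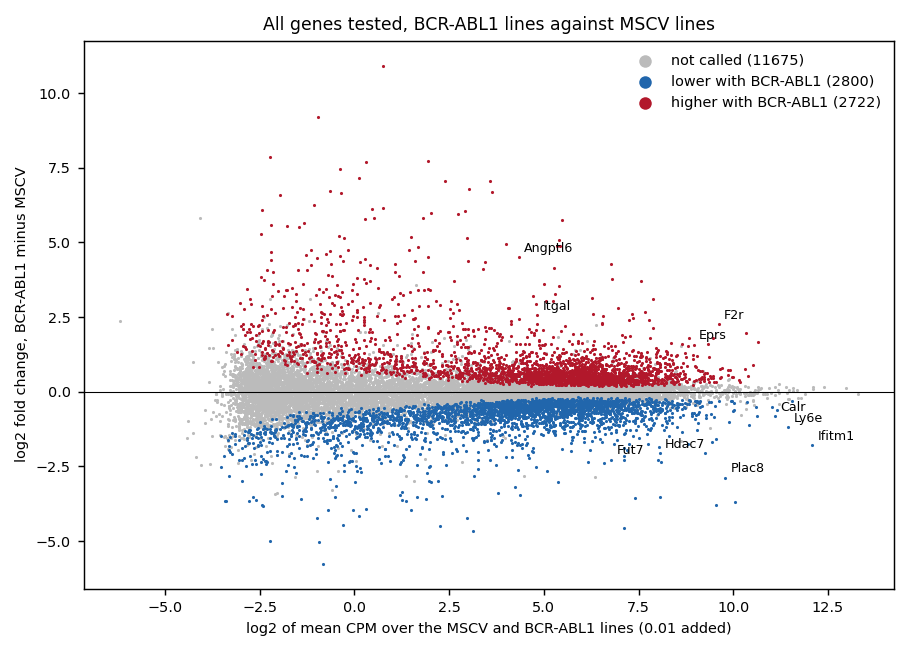
Log2 fold change between BCR-ABL1 and MSCV lines against the log2 mean CPM of each tested gene, with called genes in red (2722 higher) and blue (2800 lower). Both directions reach from low to high levels, and named points are genes described in the text.

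Among the largest gains in CPM was that of F2r, which encodes the thrombin receptor PAR1. F2r stood at 429.5, 235, 191 and 228 CPM in MSCV lines 1 to 4 and at 969.9, 1425, 1196 and 1594 CPM in BCR-ABL1 lines 1 to 4, a 4.78-fold rise (log2 change 2.26 ± 0.32 SE, adjusted p = 0.000275). Every BCR-ABL1 line was above every MSCV line, and the SFPQ-ABL1 lines, at 257–729 CPM, lay below the BCR-ABL1 lines (adjusted p = 0.00326). Cd53, a tetraspanin of white blood cells, measured 465, 401, 199 and 182 CPM with the vector and 563, 1531, 1022 and 1264 CPM with the fusion (log2 change 1.81 ± 0.35 SE, adjusted p = 0.00177). BCR-ABL1 line 1 was the lowest of its group for both genes, and for Cd53 it lay not far over the highest MSCV line. Ghitm, a protein of the inner mitochondrial membrane, rose 2.22-fold, and its BCR-ABL1 lines lay within 756–1055 CPM.

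The 10 largest losses in CPM among called protein-coding genes without overlap between the groups are given here and in later paragraphs. Genes with only a predicted or clone name and immunoglobulin and T cell receptor segments were passed over. Ifitm1, an interferon-induced membrane protein that restricts virus entry, fell from 7165, 5881, 6276 and 7441 CPM to 1360.2, 2925, 1330.2 and 2094 CPM (3.47-fold lower, log2 change -1.80 ± 0.23 SE, adjusted p = 0.000133). Ly6e, a surface protein linked to the membrane by lipid, fell from 3109.5–4549 CPM to 1438–2093 CPM (2.26-fold). Plac8, a small cysteine-rich protein of myeloid and lymphoid cells, fell from 1177, 1210.5, 1472 and 2335 CPM to 199.5, 259, 104 and 284 CPM (7.32-fold). These 3 genes had no overlap between the groups, and the SFPQ-ABL1 lines had higher levels of each than the BCR-ABL1 lines (adjusted p = 0.000913 for Ifitm1, 0.00987 for Ly6e and 0.000125 for Plac8). Abca2, a lipid transporter of late endosomes, fell 3.01-fold and Calr, the endoplasmic reticulum chaperone calreticulin, fell 1.76-fold. Scin, an actin-severing protein, fell 13.04-fold, from 1542–2628 to 23.1–231 CPM, and Pik3c2g, a class II PI3-kinase, 13.7-fold, from 643–1942 to 28.01–179 CPM. Fut7, the fucosyltransferase that completes selectin ligands, had one of the widest gaps between groups, at 166, 210.3, 161 and 189 CPM with the vector and 47.04, 43.6, 29.9 and 29.3 CPM with the fusion (log2 change -2.28 ± 0.17 SE, adjusted p = 1.17e-05). Angptl6, a secreted angiopoietin-like protein, showed the reverse, at 1.14–2.22 CPM in MSCV lines and 15.9–62.5 CPM in BCR-ABL1 lines, as did the stress-induced chromatin protein Nupr1 (0.3496–1.71 and 13.3–43.9 CPM).

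Most synthetase genes, which supply charged tRNA to translation, rose. Of 20 cytosolic aminoacyl-tRNA synthetases, the enzymes that load amino acids onto tRNA, 16 were higher and 1 was lower, with a median log2 change of 1.03 against -0.0081 over all genes tested. Eprs, which charges both glutamate and proline tRNA, was at 304, 198, 254 and 238 CPM in MSCV lines and 614, 754, 774 and 829 CPM in BCR-ABL1 lines (log2 change 1.58 ± 0.13 SE, adjusted p = 1.52e-05). The lines of the 2 groups were far apart, and SFPQ-ABL1 lines, at 301–336 CPM, lay near the MSCV lines. Lars, Nars and Farsb, for leucine, asparagine and phenylalanine, rose 2.53-, 2.86- and 2.25-fold. Phenylalanyl-tRNA synthetase is built of an alpha and a beta chain, and these moved apart: Farsb, the beta chain, rose from 34.4–46.8 to 81.2–93.9 CPM, whereas Farsa, the alpha chain, was the 1 member that fell, from 138–161 to 97.01–112 CPM (adjusted p = 0.0024). The 17 mitochondrial synthetases tested, which serve the separate translation of mitochondria, had 4 higher and 2 lower and a median of -0.07. That share of 35.3% called is near the background, and leaving out MSCV line 3 or 4, or line 3 with BCR-ABL1, left 2 higher. The 2 lower became 1 after leaving out any line other than MSCV line 1 and BCR-ABL1 line 3.

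Amino acid transporters were also mostly higher. Among 20 amino acid transporters, 13 were higher and 4 lower. Slc7a1, which imports arginine and lysine, was at 308, 139, 183 and 163 CPM with the vector and at 573, 602, 622 and 614 CPM with the fusion (log2 change 1.61 ± 0.19 SE, adjusted p = 8.80e-05). MSCV line 1 was the highest of its group and still lay well under every BCR-ABL1 line. Slc3a2 and Slc7a5, the heavy and light chains of the LAT1 carrier of large neutral amino acids, rose 2.34- and 2.59-fold, and Slc1a4, a carrier of alanine, serine and cysteine, rose 3.23-fold. The 4 members that fell were Slc36a1 and Slc38a9, which act at the lysosome membrane, Slc38a10 (1.34-fold), and Slc43a2 (1.55-fold), a carrier of large neutral amino acids. Slc36a1 went from 39.2, 38.6, 48.7 and 51.2 to 27.9, 27.9, 24.4 and 30.98 CPM and Slc38a9, a sensor of arginine for mTORC1, from 35.8–47.5 to 29.3–32.8 CPM.

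Of 16 tested serine synthesis and one-carbon enzymes, 9 were higher and 1 lower. Phgdh, which commits glycolytic carbon to serine, rose 2.62-fold, and Psat1, the next enzyme, rose 2.32-fold. Mthfd2, the mitochondrial enzyme that passes on the carbon taken from serine, had 155, 59.9, 104 and 82.99 CPM in MSCV lines and 323, 347, 394 and 329.6 CPM in BCR-ABL1 lines (log2 change 1.80 ± 0.22 SE, adjusted p = 0.00011). Its MSCV values spread more than 2-fold, with line 2 lowest and line 1 highest, yet all lay under 323 CPM, the lowest BCR-ABL1 value. Shmt2, its mitochondrial partner, rose 1.78-fold. Psph, the last enzyme of serine synthesis, was the member that fell (7.22–8.55 to 4.37–5.25 CPM, adjusted p = 0.000939).

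**Figure D2:**
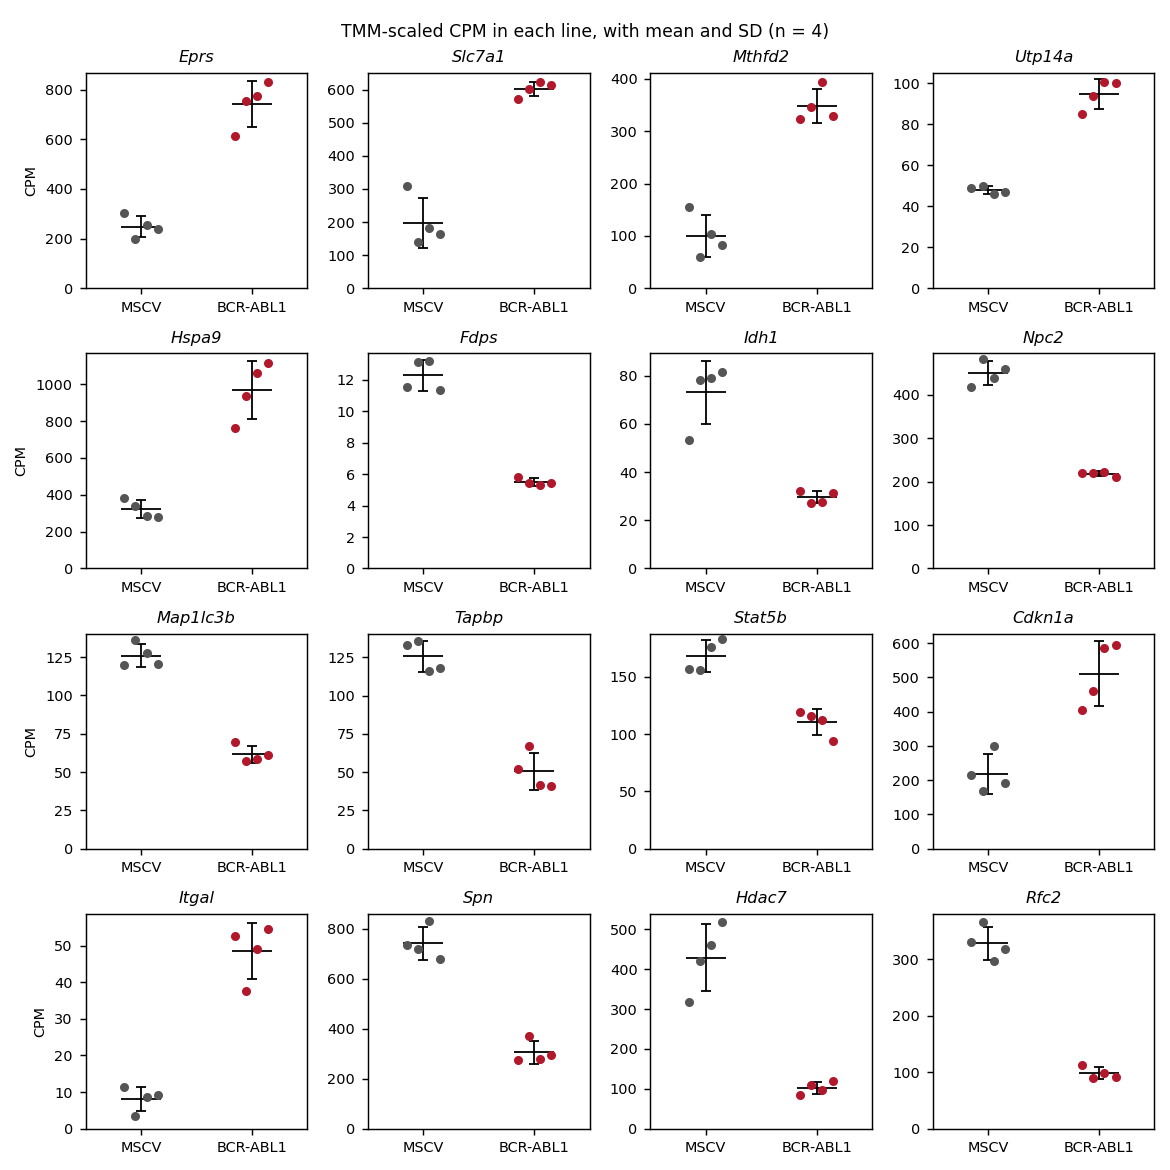
TMM-scaled CPM of 16 genes described in the text, with 1 point per line (lines 1 to 4 from left to right), the mean as a wide bar and the SD as whiskers (n = 4 lines per group), on linear axes that start at 0. In each panel the MSCV points and the BCR-ABL1 points do not overlap, as for Eprs at 198–304 and 614–829 CPM.

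Genes that build ribosomes and genes for the ribosomal proteins themselves gave different counts. Of 45 genes for ribosome biogenesis and RNA polymerase I, 30 were higher and none lower, with a median log2 change of 0.61. By contrast 2 of 81 cytosolic ribosomal protein genes were higher and 2 lower, 4.94% in all and far under the background, with a median of -0.02. These small counts moved with single lines, from 0 higher without BCR-ABL1 line 3 to 5 higher in another fit. Utp14a, a helper of small-subunit assembly, was at 48.8, 49.9, 45.9 and 46.8 CPM with the vector and 85.1, 93.8, 100.5 and 100.2 CPM with the fusion (log2 change 0.99 ± 0.09 SE, adjusted p = 1.88e-05). Its lines varied little within either group. Taf1d, of the polymerase I promoter factor SL1, rose 1.48-fold, Tcof1, which couples ribosomal DNA transcription to RNA modification, 1.94-fold, and Utp4 1.92-fold. Rrn3 rose 1.43-fold and Nop2 1.83-fold. Nop2 showed a split among the controls that recurred in this list, with 83.1, 60.4, 41.98 and 44.7 CPM in MSCV lines 1 to 4 against 121, 94.7, 98.97 and 107 CPM in BCR-ABL1 lines.

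Translation initiation factors gave 17 higher and 2 lower of 42, and the 2 lower became 1 when MSCV line 1 or 4, or any of the first 3 BCR-ABL1 lines, was left out. Eif2s2, the beta subunit of the factor that brings the initiator tRNA, rose from 85.3, 65.4, 67.7 and 62.4 to 157, 176, 156 and 146 CPM (log2 change 1.18 ± 0.10 SE, adjusted p = 1.70e-05). Eif5, which triggers hydrolysis of GTP on that factor, rose 1.82-fold and Eif3c, a core subunit of eIF3, 1.64-fold. The cap-binding repressors went opposite ways: Eif4ebp1 rose from 57.97–69.4 to 123–169 CPM and Eif4ebp2 fell from 369–399.9 to 266–329 CPM (adjusted p = 1.88e-05 and 0.00216). Protein folding genes of the cytosol and mitochondria had 13 higher and none lower of 19. Hspa9, the mitochondrial HSP70, was at 383, 338, 287 and 279 CPM against 763, 938, 1060.1 and 1115 CPM (log2 change 1.59 ± 0.13 SE, adjusted p = 1.56e-05), and its groups were well separated. Hspd1 and Hspe1, the mitochondrial chaperonin and its lid, rose 1.95- and 1.85-fold, and Cct8, a subunit of the cytosolic chaperonin, 1.52-fold. In the endoplasmic reticulum the stress sensors Atf6 and Ern1 rose 2.12- and 2.07-fold and the chaperone Hyou1 1.698-fold, as Calr fell.

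Nucleotide synthesis leaned the same way with smaller and less stable counts. Purine synthesis had 8 higher and 1 lower of 15, and 5 higher when line 3 of either group was left out. Pyrimidine and deoxynucleotide synthesis had 8 higher and 2 lower of 18, and 5 higher when MSCV line 3 or 4 was left out. Rrm2, the small subunit of ribonucleotide reductase, rose from 132, 162, 124 and 133 CPM to 280.1, 348, 313 and 248 CPM (log2 change 1.11 ± 0.12 SE, adjusted p = 5.45e-05) with no overlap. The CTP synthases diverged, Ctps rising 2.42-fold and Ctps2 falling 1.46-fold (adjusted p = 0.0012 and 0.00338).

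Genes of lipid and NADPH synthesis were mostly lower where they were called. Sterol synthesis had 13 of 23 tested genes lower and none higher, with a median log2 change of -0.39. Fdps, which joins isoprene units, was at 11.5, 13.1, 13.2 and 11.4 CPM with the vector and 5.82, 5.43, 5.299 and 5.47 CPM with the fusion (log2 change -1.16 ± 0.13 SE, adjusted p = 5.45e-05), and its BCR-ABL1 lines were nearly equal to each other. Idi1, an isomerase of the same route, fell 2.402-fold.

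Fatty acid genes that were called were nearly all lower. For synthesis and desaturation 7 of 18 genes were lower and none higher, and for oxidation 10 of 17 were lower and 1 higher. Acss2, which turns acetate into acetyl-CoA, was at 115, 157, 179.7 and 175 CPM in MSCV lines and 63.4, 50.02, 55.3 and 71.4 CPM in BCR-ABL1 lines (log2 change -1.38 ± 0.17 SE, adjusted p = 9.69e-05). The desaturases Fads1, Fads2 and Scd2 fell 1.49-, 2.07- and 2.14-fold, as did Srebf1, the regulator of this pathway (1.75-fold). Fasn, the fatty acid synthase, did not pass (307–486 and 284–348 CPM, adjusted p = 0.333). Cpt1a, the gate for fatty acids into mitochondria, fell 1.998-fold and Acaa2, which cuts off acetyl-CoA, 2.08-fold. Acot2, a mitochondrial thioesterase that frees fatty acids from CoA, was the 1 gene that rose, from 12.5–16.6 to 25.9–48.3 CPM (log2 change 1.33 ± 0.17 SE, adjusted p = 0.000151).

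Of 11 pentose phosphate and NADPH genes, 6 were lower. Idh1, the cytosolic isocitrate dehydrogenase that makes NADPH, fell from 53.4, 78.2, 79.2 and 81.5 CPM to 32.1, 27.3, 27.7 and 31.4 CPM (log2 change -1.30 ± 0.15 SE, adjusted p = 5.99e-05). The 2 groups did not overlap although MSCV line 1 was the lowest of its group. G6pdx and Pgd, the 2 NADPH-forming steps of the pentose phosphate route, fell 1.38- and 1.39-fold, and Tkt and Taldo1, which rearrange its sugars, 1.34- and 1.505-fold. Rpe, the epimerase between these steps, rose 1.604-fold (adjusted p = 5.45e-05). It was 1 of 2 genes higher, and 1 gene was higher when any line other than MSCV line 2 and BCR-ABL1 line 1 was left out.

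The glutathione and NRF2 list had 15 lower and 5 higher of 29. Nqo1, a quinone reductase used as a marker of NRF2 activity, was at 14.4, 17.7, 20.7 and 21.1 CPM with the vector and 7.86, 4.76, 5.37 and 6.01 CPM with the fusion (log2 change -1.62 ± 0.22 SE, adjusted p = 0.000176). Mgst3, a membrane glutathione transferase, fell 2.38-fold, Gss, which completes glutathione, 1.703-fold, and Cat, catalase, 1.46-fold. Hmox1, haem oxygenase, went the other way, from 30.3, 76.8, 79.2 and 63.3 to 81.5, 324, 194 and 284 CPM (log2 change 1.82 ± 0.41 SE, adjusted p = 0.00468). Line 1 was the lowest of both groups for Hmox1, and BCR-ABL1 line 1 lay just over the highest MSCV value. Central carbon genes had called shares under the background, with 4 higher and 1 lower of 20 for glycolysis (25.0%) and 5 higher and 1 lower of 23 for the citric acid cycle (26.1%). Hk3, a hexokinase of white blood cells, rose from 58.8, 20.5, 74.5 and 66.7 to 276, 300.2, 168 and 665 CPM (log2 change 2.68 ± 0.45 SE, adjusted p = 0.000808). Those counts were unsteady: glycolysis had 2 higher when BCR-ABL1 line 3 or 4 was left out and from 0 to 3 lower over the alternatives, and the citric acid cycle had 3 higher without MSCV line 3.

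Called lysosome genes were mostly lower. Of 55 genes for lysosomal enzymes, membrane proteins and the proton pump, 24 were lower and 4 higher, with a median log2 change of -0.34, and the 4 higher became 2 when MSCV line 1, 3 or 4 was left out, or line 2 or 3 with BCR-ABL1. Npc2, which carries cholesterol out of the lysosome, was at 419, 482, 439 and 459 CPM in MSCV lines and 221, 219.8, 223 and 209.8 CPM in BCR-ABL1 lines (log2 change -1.04 ± 0.09 SE, adjusted p = 1.82e-05). The groups were far apart for it, and its BCR-ABL1 lines were nearly equal. The proteases Ctsb and Tpp1 fell 1.69- and 1.63-fold. Progranulin (Grn) fell 2.29-fold, prosaposin (Psap) 1.76-fold and the membrane protein Lamp1 1.63-fold. Atp6v0a1, a subunit of the proton pump, rose 1.65-fold (adjusted p = 0.00239), whereas Atp6v0d1, of the same pump, fell 1.42-fold. The SFPQ-ABL1 lines had 224–300.2 CPM of Npc2, above the BCR-ABL1 lines (adjusted p = 0.0268), and 199–328 CPM of Grn, for which that difference did not pass (adjusted p = 0.14).

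In the autophagy list, 12 of 36 genes were lower and 4 higher, and 7 were higher by DESeq2. Its median log2 change was only -0.03. Map1lc3b, the LC3 protein that coats autophagosomes, was at 119.99, 136, 128 and 120.2 CPM with the vector and 69.7, 57.1, 58.5 and 61.1 CPM with the fusion (log2 change -1.03 ± 0.09 SE, adjusted p = 1.63e-05), with no overlap. Ulk1, the kinase that starts autophagy, fell 1.75-fold, Atg2a, a lipid transfer protein, 1.81-fold and Tfeb, the factor that drives lysosome genes, 1.42-fold. Sqstm1, the p62 cargo receptor, rose from 166–212 to 233–389 CPM (adjusted p = 0.00324). In all 44.4% of this list was called.

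Antigen presentation genes had 14 lower and 2 higher of 23, with a median log2 change of -0.69. Tapbp, tapasin, which loads peptide onto class I molecules, was at 133, 136, 116 and 118 CPM in MSCV lines and 51.9, 67.01, 41.8 and 40.99 CPM in BCR-ABL1 lines (log2 change -1.32 ± 0.15 SE, adjusted p = 5.51e-05). Tap2 and Tap1, the 2 chains of the peptide transporter, fell 2.45- and 1.92-fold, and H2-Oa and H2-DMa, which edit class II peptides, 3.41- and 3.21-fold. B2m, the light chain of class I on chromosome 2, fell 1.62-fold, and its SFPQ-ABL1 lines, at 189.6–220.02 CPM, did not differ from the BCR-ABL1 lines by the test (adjusted p = 0.901). Counts of the class I heavy chain genes are uncertain because near-identical copies can share reads. Nlrc5, the class I transactivator, rose from 0.138–0.384 to 0.562–1.18 CPM, a level so low that 1 member was higher when a mean of 1 CPM was required, and Cd74, the class II chaperone, from 1.197–3.95 to 6.38–21.7 CPM.

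These genes were also counted by position. The list was drawn largely from MHC genes, so few of its members lie elsewhere. Of the 18 tested genes of this list on chromosome 17, where the mouse MHC lies, 13 were lower and none higher, with a median of -0.93, while the 5 on other chromosomes gave 1 lower and 2 higher. Psmb8 and Psmb9, the inducible proteasome subunits of the same locus, fell 2.15- and 2.05-fold. Their partner Psme1, of the proteasome activator on chromosome 14, fell 1.73-fold, while the core regulatory subunits Psmc6, Psmc2 and Psmd14 rose 1.48-, 1.702- and 1.47-fold. Chromosome 17 as a whole was low as well. Its 906 tested genes had 91 higher and 215 lower and a median of -0.17, and leaving out the antigen presentation genes left 91 higher and 202 lower and a median of -0.16. The part of position in the falls was not tested. Interferon factors and targets had 9 lower and 2 higher of 32, or 34.4%, near the background, and the higher count ran from 1 to 7 over the alternatives. It was 7 without BCR-ABL1 line 1, 4 without MSCV line 3 and 1 when BCR-ABL1 line 2 or 4 was dropped. Irf5 and Irf1, transcription factors of the response, fell 1.54- and 1.87-fold, and the RNA sensor Oas1a 1.67-fold.

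Receptor genes changed in both directions. Of 28 cytokine and growth factor receptors, 7 were higher and 7 lower, with 4 lower when line 1 of either group was left out. Il3ra, the alpha chain of the IL-3 receptor, fell 1.92-fold. Epor, the erythropoietin receptor, fell from 28.7, 35.6, 38.96 and 39.2 to 25.03, 14.3, 17.1 and 13.5 CPM (log2 change -1.03 ± 0.20 SE, adjusted p = 0.00197) and Il17ra, an interleukin-17 receptor chain, 1.58-fold. Il4ra, the interleukin-4 receptor, rose from 47.9–62.8 to 77.6–126 CPM and Il15ra 1.73-fold. The chains of the interferon-gamma receptor went apart, Ifngr2 rising 1.72-fold and Ifngr1 falling 2.22-fold. Il2ra, the alpha chain of the interleukin-2 receptor, had a large change, from 11.9, 17.7, 5.51 and 8.18 CPM to 63.4, 433, 173 and 168 CPM (log2 change 4.27 ± 0.87 SE, adjusted p = 0.00261). BCR-ABL1 line 2 was the highest and line 1 the lowest of its group, and without line 2 the log2 change was 3.64.

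Downstream of these receptors, 6 of 10 JAK and STAT genes were lower and none higher, a list median of -0.44. Stat5b was at 157, 156, 176 and 183 CPM with the vector and 119.6, 116, 112 and 94.2 CPM with the fusion (log2 change -0.61 ± 0.09 SE, adjusted p = 0.000452). Stat5a, its close relative, fell 1.59-fold, Stat2, of the interferon response, 1.69-fold and the kinase Tyk2 1.44-fold. Jak2, the kinase of the IL-3 receptor, fell 2.05-fold from 151, 396, 189 and 174 to 113, 122, 105 and 104 CPM, with MSCV line 2 far above the other MSCV lines. Of 15 dual-specificity phosphatase, Sprouty and SPRED genes, some of which restrain the ERK pathway, 12 were higher and none lower. Dusp4, a nuclear ERK phosphatase, rose 8.24-fold, Spred1, which restrains RAS, 2.47-fold, Dusp7, a cytosolic ERK phosphatase, 1.93-fold and Spred2, which restrains RAF, 2.09-fold. Spry4, another restraint on RAS and RAF, went from 0.252, 0.336, 0.0132 and 0.169 CPM to 5.0, 4.41, 5.68 and 5.701 CPM, with the BCR-ABL1 lines alike and the MSCV lines all under 1 CPM. AP-1 and immediate early genes had 11 higher and none lower of 22. Fosl2 rose from 20.8, 29.97, 36.5 and 29.2 to 51.5, 99.5, 91.7 and 118 CPM (log2 change 1.63 ± 0.25 SE, adjusted p = 0.000373), Fosl1 6.13-fold from 0.1995–0.225 to 1.04–1.55 CPM, Jun 4.18-fold and Fos 5.13-fold, and BCR-ABL1 line 1 was the lowest of its group for Fosl2 and Jun.

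PI3K, AKT and mTOR genes were split, with 7 higher and 9 lower of 36, 4 higher without MSCV line 2, and 5 lower when MSCV line 4, or line 2 or 3 with BCR-ABL1, was left out. Pik3cg, the catalytic subunit that acts behind G-protein-coupled receptors, rose from 204, 169.6, 177 and 168 to 342, 604, 354 and 438 CPM (log2 change 1.27 ± 0.17 SE, adjusted p = 0.000182). Inpp5d, the SHIP1 phosphatase that removes the PI3K product, fell 1.66-fold, and Pik3ip1, an inhibitor of PI3K, fell 3.3-fold. Rheb, which activates mTORC1, rose 1.43-fold, and Tsc2, which restrains Rheb, fell 1.29-fold. The IL-3 receptor beta chain gene Csf2rb did not pass the test, at 1659, 2081, 958 and 1209 CPM with the vector and 601, 1145, 661 and 1053 CPM with the fusion (adjusted p = 0.0651), although it passed as lower by DESeq2, with no filter on counts and without MSCV line 3. G-protein regulators and phosphodiesterases had 12 lower and 3 higher of 43, 34.9% in all and near the background, and 5 higher without MSCV line 2. Arrb2, beta-arrestin 2, which ends receptor signals, rose from 78–88.5 to 177–225 CPM, and Pde3b, which breaks down cyclic AMP, fell 2.14-fold.

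Of 23 NF-kB genes 13 were higher, 2 lower and 8 not called, with a median of 0.44. No lower call was left when line 3 or 4 of either group, or BCR-ABL1 line 1, was dropped, and 1 was left when MSCV line 2 was dropped. Chuk, the kinase IKK-alpha, was at 74.6, 68.99, 80.9 and 75.6 CPM in MSCV lines and 109.7, 124, 115 and 133 CPM in BCR-ABL1 lines (log2 change 0.68 ± 0.09 SE, adjusted p = 0.000134). Nfkb2, the precursor of p52, rose 1.97-fold, and Nfkbia, the inhibitor that the pathway itself induces, 3.01-fold with BCR-ABL1 line 2 highest (34.5, 98.3, 45.1 and 42.6 CPM). Of 26 pattern recognition receptors and adaptors 6 were higher and 5 lower (42.3%), with 3 lower without BCR-ABL1 line 3. Tlr4, the receptor for bacterial lipopolysaccharide, went from 0.403, 0.202, 0.4099 and 0.721 CPM to 5.22, 19.3, 10.1 and 26.04 CPM (log2 change 5.13 ± 0.69 SE, adjusted p = 0.000182), and Clec4e, a receptor for mycobacterial glycolipid, from 0.214, 0.0941, 0.0529 and 0.553 CPM to 6.93, 23.7, 8.44 and 20.2 CPM. The log2 change of Clec4e was 6.04, and 6.91 without MSCV line 4, the highest of its group. Irak4 and Irak3, kinases behind Toll-like receptors, fell 1.88- and 2.43-fold, while Aim2, a sensor of cytosolic DNA, rose 1.43-fold.

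Adhesion genes changed mostly downward. Of 33 integrin and leukocyte adhesion genes, 11 were lower and 4 higher, and 2 higher when MSCV line 1 or BCR-ABL1 line 4 was left out. Spn, CD43, a large sialoglycoprotein of white blood cells, was at 736, 718, 832 and 679 CPM with the vector and 276, 372, 279 and 297 CPM with the fusion (log2 change -1.28 ± 0.13 SE, adjusted p = 4.11e-05). Selplg, the P-selectin ligand that Fut7 helps to complete, fell 3.05-fold, and the fibronectin-binding integrin chains Itga5 and Itga4 1.95- and 3.34-fold. Itgal, the alpha chain of LFA-1, rose from 11.3, 3.44, 8.69 and 9.27 to 52.6, 37.7, 49.1 and 54.6 CPM (log2 change 2.57 ± 0.35 SE, adjusted p = 0.000195). Its SFPQ-ABL1 lines were at 2.99–7.95 CPM, in or just under the range of the vector lines and under the BCR-ABL1 lines (adjusted p = 0.000149). Of 39 actin cytoskeleton genes, 14 were lower and 5 higher, and 8 higher without MSCV line 2. Coro1b, which remodels branched actin, fell 1.74-fold, Arpc5, of the ARP2/3 nucleator, 1.63-fold and the myosin light chain Myl6 1.53-fold. Lcp1, which bundles actin in white blood cells, rose from 847–1195 to 1357–2394 CPM, and Tpm4, a tropomyosin, 1.91-fold.

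Of the cell cycle lists, that of G1 genes had the largest share called. Of 24 G1 cyclins, kinases, E2F factors and inhibitors, 11 were higher and 4 lower, a median of 0.33. Cdkn1a, the p21 inhibitor, was at 214, 168, 299 and 190.4 CPM in MSCV lines and 403, 459.8, 585 and 595 CPM in BCR-ABL1 lines (log2 change 1.23 ± 0.23 SE, adjusted p = 0.00147), whereas Cdkn2c, p18, fell 1.67-fold and Cdkn1b, p27, 1.54-fold with overlap between groups. Rb1 rose 1.67-fold, E2f4, a repressor that works with such pocket proteins, 1.55-fold and Ccne2, cyclin E2, 1.64-fold. G2 and mitosis genes had 10 lower of 30 and none higher, with 1 higher without BCR-ABL1 line 4. The centromere histone Cenpa fell from 175, 196, 227 and 216 to 136, 120.2, 129.5 and 126 CPM, and Cenpf fell 1.56-fold. DNA replication genes, with 3 higher and 4 lower of 35, had 20% called. Those counts ranged from 1 to 5 and from 2 to 7 over the alternatives, with 1 higher when line 3 of either group or BCR-ABL1 line 1 was left out and 5 higher without BCR-ABL1 line 2. Of the lower calls 7 stood without BCR-ABL1 line 1, and 2 when line 2 or 4 of either group, or MSCV line 1, was left out. Within that list Rfc2, a subunit of the loader of the replication clamp, stood out at 332, 367, 297 and 319 CPM with the vector and 114, 90.2, 98.01 and 91.99 CPM with the fusion (log2 change -1.74 ± 0.09 SE, adjusted p = 1.81e-06). SFPQ-ABL1 lines lay between, at 236–248 CPM.

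Genes of apoptosis changed on both sides. Of 18 pro-death BCL-2 genes and caspases, 4 were higher and 5 lower, and of 12 pro-survival genes 6 were higher and none lower. The survival genes Bcl2l1 (BCL-XL) and Bcl2l2 (BCL-W) rose 2.97- and 1.44-fold, and counts of the Bcl2a1 copies, 3 of those higher, are uncertain because the copies are near-identical. Bbc3, the p53 target PUMA that blocks survival proteins, also rose, from 43.3, 34.3, 53.3 and 36.5 CPM to 74.3, 63.4, 116 and 108 CPM (log2 change 1.11 ± 0.22 SE, adjusted p = 0.0024). All BCR-ABL1 lines were above the MSCV lines for Bbc3, and the SFPQ-ABL1 lines lay below both groups, at 15.8–28.4 CPM (adjusted p = 0.000189 between the fusions). The caspases Casp6 and Casp9 fell 1.87- and 1.29-fold. Bcl2l11, the death gene BIM, did not pass (17.9–32.9 and 11.8–21.7 CPM, adjusted p = 0.0565) but passed as lower by DESeq2, by both other scalings and when MSCV line 1 or 2, or line 4 with BCR-ABL1, was left out. Mcl1 did not pass either (adjusted p = 0.329).

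Inhibitors of cytokine signalling and surface genes of lymphocyte activation included large changes. Of 11 SOCS and PIM genes 5 were higher and none lower. Cish, shown above with its STAT matches, was at 36.9, 24.4, 31.96 and 30.9 CPM in MSCV lines and 163, 203, 259.9 and 238 CPM in BCR-ABL1 lines (log2 change 2.80 ± 0.31 SE, adjusted p = 5.03e-05), and its SFPQ-ABL1 lines, at 83.9–274 CPM, did not differ from BCR-ABL1 by the test (adjusted p = 0.502). Pim2, a survival kinase induced by STAT5, rose 13.8-fold and Socs5 1.46-fold. Of 13 activation genes 6 were higher and 4 lower, and 2 lower when BCR-ABL1 line 2 or 3 was left out. The ligands of the PD-1 receptor rose together, Cd274 (PD-L1) from 18.4, 8.58, 11.3 and 9.73 CPM to 30.7, 61.4, 54.6 and 55.9 CPM (log2 change 2.08 ± 0.44 SE, adjusted p = 0.0032) and Pdcd1lg2 (PD-L2) from 2.69–6.95 to 10.5–24.01 CPM. BCR-ABL1 line 1 was the lowest of its group for both genes and still lay above all vector lines. Lag3, an inhibitory receptor that binds class II, fell from 25.4, 17.01, 23.9 and 23.8 to 5.55, 3.604, 4.22 and 3.16 CPM (log2 change -2.44 ± 0.26 SE, adjusted p = 4.77e-05).

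Among chemokine and chemoattractant genes, 7 were higher and 5 lower of 21, and 3 lower when MSCV line 3 or 4 was left out. Cxcr4, the receptor for CXCL12, fell 4.92-fold. S1pr4, a sphingosine phosphate receptor, fell from 22.9, 32.6, 29.7 and 29.99 to 14.03, 11.6, 14.2 and 14.4 CPM, and Gpr183, which senses oxysterols, fell from 43.5–70.97 to 3.801–21.8 CPM. Gpr183 was far higher in BCR-ABL1 line 2 than in the other 3, and its log2 change of -2.64 became -3.48 without that line. S1pr1, which guides exit from lymphoid tissue, rose from 0.145–0.315 to 0.987–2.62 CPM, a low level. Of 20 iron and haem genes 5 were higher and 4 lower, and 3 higher when BCR-ABL1 line 2 or 4 was left out. Within haem synthesis Alad, which joins precursors into pyrroles, fell from 104, 154, 123 and 151 to 57.9, 35.9, 48.3 and 36.6 CPM (log2 change -1.58 ± 0.23 SE, adjusted p = 0.000303) and Urod, a later step, 2.12-fold, while Cpox, the step after Urod, rose 1.71-fold. Of 18 annexin and S100 genes 7 were lower and 2 higher, with 1 higher when MSCV line 1 or 3, or line 4 with BCR-ABL1, was left out. S100a11, S100a1, S100a13 and S100a10, all on chromosome 3, which encode small calcium-binding proteins, fell 1.74-, 1.82-, 1.98- and 1.91-fold, and MSCV line 2 was the highest line for each.

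Regulators of transcription changed in both directions. Hdac7, a class IIa histone deacetylase, was at 317, 419.7, 461 and 517 CPM in MSCV lines and 84.5, 111, 97.4 and 119 CPM in BCR-ABL1 lines, a 4.17-fold fall (log2 change -2.06 ± 0.17 SE, adjusted p = 1.36e-05). No BCR-ABL1 line came near the lowest MSCV line, and SFPQ-ABL1 lines, at 228–320.4 CPM, were higher than BCR-ABL1 lines (adjusted p = 0.000197). Hmga1, an architectural chromatin protein, rose 2.59-fold. Among Polycomb genes, Cbx8 of complex 1 fell 1.78-fold and Eed of complex 2 rose 1.62-fold. The chromatin list had 16 higher and 8 lower of 64, 37.5% in all, and 5 lower without BCR-ABL1 line 4. Lineage factors had 9 higher and 9 lower of 38. Cebpg and Cebpb, partners of ATF4 and factors of myeloid genes, rose 2.24- and 1.896-fold, and Id2, an inhibitor of E proteins, rose from 12.1, 14.3, 20.3 and 19.98 to 31.5, 81.6, 67.2 and 56.9 CPM. Runx1 fell from 192–235 to 119–142 CPM (log2 change -0.70 ± 0.09 SE, adjusted p = 0.000124). Cd79a and Cd79b, the signalling chains of the B-cell receptor, fell 2.197- and 2.42-fold. Myc did not pass the test, at 228–408 and 220.1–277 CPM (adjusted p = 0.0662), although it passed as lower without MSCV line 2 and with upper-quartile scaling. Of 11 genes of the MYC and MAX network 2 were higher and 3 lower. Among those that compete with MYC for MAX, Mxd4 and Mxd3 fell 2.01- and 1.99-fold, and Mxd1 and Mga rose 1.796- and 1.53-fold, Mxd1 with overlap between groups.

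**Figure D3:**
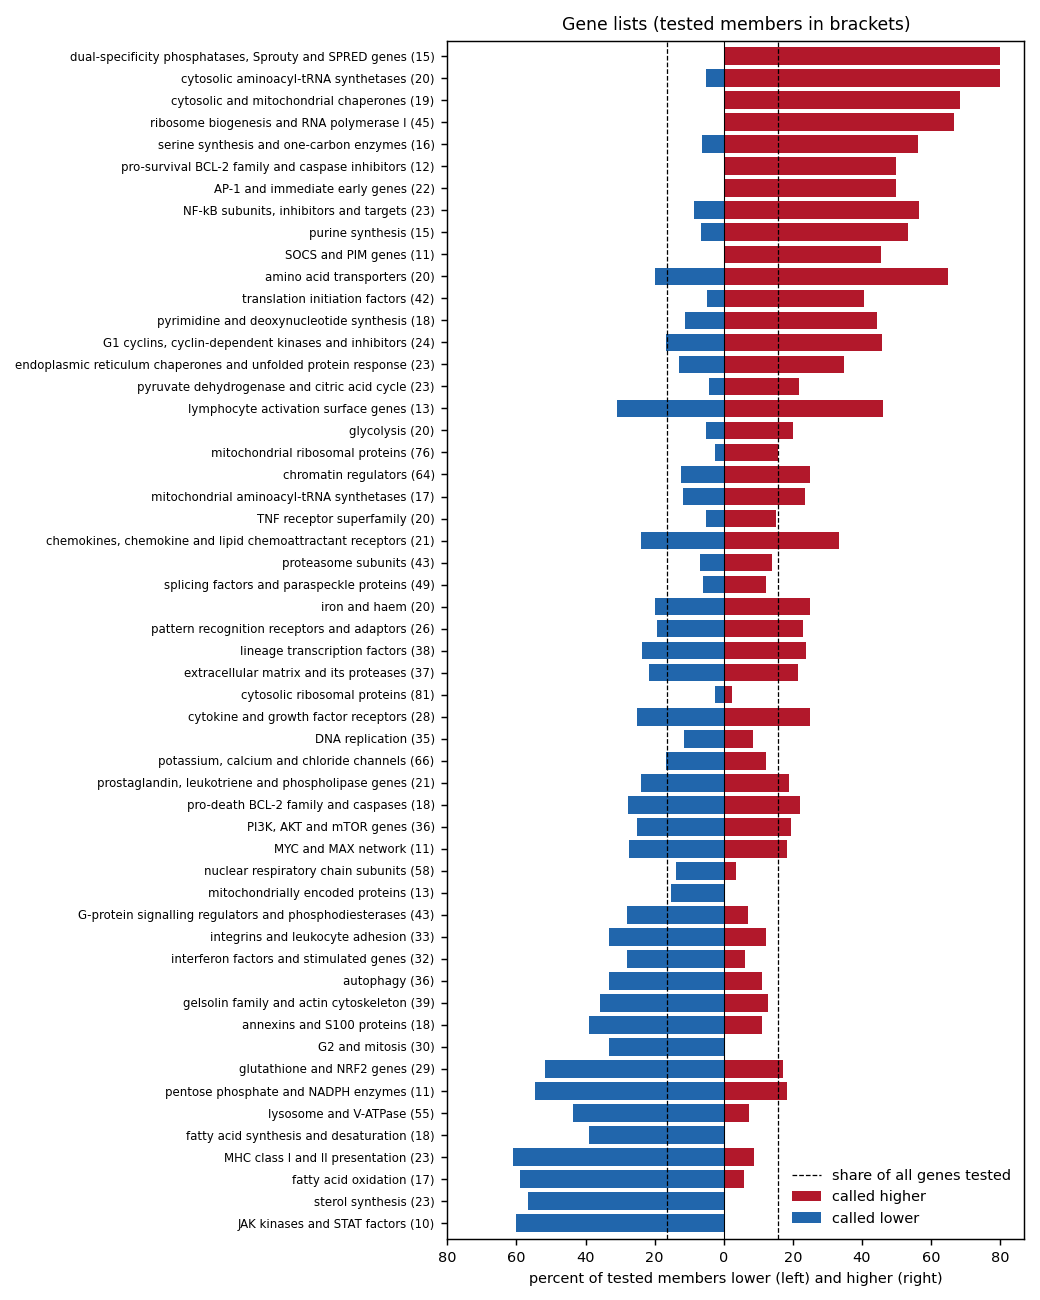
Percent of the tested members of each gene list that were called lower (blue, left) or higher (red, right) with BCR-ABL1, with the number tested in brackets and dashed lines at the shares of all genes, 16.3% lower and 15.8% higher. Synthetases, chaperones and ribosome biogenesis genes reach far to the right, and sterol, fatty acid oxidation, antigen presentation and JAK and STAT genes far to the left.

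Extracellular matrix genes and their proteases had 8 higher and 8 lower of 37, with 5 of each without MSCV line 3 and 5 lower without BCR-ABL1 line 1 or 4. The collagen chain gene Col5a1, also among the largest losses, fell 4.16-fold, from 696–1159.6 to 173–344 CPM, and the laminin chain gene Lamb2 2.03-fold. Spp1, osteopontin, rose from 44.5, 54.6, 49.2 and 50.5 to 109.6, 530.5, 266 and 789.7 CPM (log2 change 3.09 ± 0.53 SE, adjusted p = 0.000891), with a wide spread among the BCR-ABL1 lines and no overlap. Of 21 prostaglandin, leukotriene and phospholipase genes 4 were higher and 5 lower. Only 2 were higher when MSCV line 3 or BCR-ABL1 line 4 was left out, and 2 or 3 lower when any line other than MSCV lines 1 and 2 was left out, against 8 with upper-quartile scaling and 3 with limma-voom. Pla2g4a, the phospholipase that frees arachidonic acid, rose from 60.7, 44.8, 57.6 and 59.6 to 160.3, 176, 196 and 308 CPM (log2 change 1.92 ± 0.23 SE, adjusted p = 7.55e-05), and Ptgir, the prostacyclin receptor, rose 2.24-fold.

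Several other lists lay near or under the background of 32.1% of all genes tested, and under the 37.7% of protein-coding genes. Of 20 TNF receptor genes 3 were higher and 1 lower (20%), with 2 lower without BCR-ABL1 line 1. Tnfrsf12a, the receptor of TWEAK, rose 2.46-fold, the smallest of the 3 rises. Splicing factors had 6 higher and 3 lower of 49 (18.4%), with from 2 to 10 higher and 1 to 6 lower over the alternatives. The splicing counts were 3 higher when MSCV line 3 or 4 was left out, 10 higher without MSCV line 1, and 1 lower when line 3 of either group or BCR-ABL1 line 4 was left out. Potassium, calcium and chloride channels had 8 higher and 11 lower of 66 (28.8%), proteasome subunits 6 higher and 3 lower of 43 (20.9%) and mitochondrial ribosomal proteins 12 higher and 2 lower of 76 (18.4%), with 0 or 1 lower when MSCV line 2 or any of BCR-ABL1 lines 2 to 4 was left out. Nuclear subunits of the respiratory chain had 2 higher and 8 lower of 58 (17.2%), and there the lower count ran from 4, when line 1 of either group, MSCV line 2 or BCR-ABL1 line 4 was left out, to 14 with upper-quartile scaling. Without MSCV line 2 the higher count was 6. MSCV line 2 had the highest median of that list, 0.39 above the mean of its group on the log2 scale, against -0.21 to 0.00 in the other MSCV lines. Of the 13 mitochondrially encoded protein genes 2 were lower, and 1 when MSCV line 2 or BCR-ABL1 line 3 was left out. The cytochrome b gene mt-Cytb fell from 2908, 3445, 2215 and 2478 to 1682, 1504, 1959 and 2038 CPM (log2 change -0.62 ± 0.15 SE, adjusted p = 0.00762).

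Calls were counted by gene class. Of 12087 protein-coding genes 37.7% were called, 2229 higher and 2323 lower. Of 1817 long non-coding RNA genes 24.5% were called, with 159 higher and 286 lower, and of 2409 pseudogenes 259 were higher and 136 lower. The difference between these classes was not tested. Snhg5, a host gene of small nucleolar RNAs, rose from 74.1, 49.7, 51.2 and 50.5 to 134, 139.7, 197 and 187 CPM (log2 change 1.54 ± 0.16 SE, adjusted p = 3.76e-05), and Gm32856 rose 4.86-fold. Among those that fell were Gm47469, 2.12-fold, and D330041H03Rik, 2.31-fold. By chromosome, the median log2 change lay between -0.09 and 0.07 for chromosomes 1 to 16, 18, 19 and X. Chromosome 17 was the lowest of the nuclear chromosomes at -0.17, and the mitochondrial genome was at -0.37. Calls leaned upward on chromosomes 16 (120 higher and 69 lower), 18 (93 and 52) and 1 (204 and 122). For 499 protein-coding genes of chromosome 17 at 5 CPM or more, the median difference from the MSCV mean was -0.135, -0.194, -0.114 and -0.159 in BCR-ABL1 lines 1 to 4, and between -0.091 and 0.090 in each MSCV line against the other 3. Lines of the groups also did not overlap on some other chromosomes. On chromosome 16 they ran from 0.098 to 0.137 with BCR-ABL1 and from -0.018 to 0.008 with MSCV. For chromosome 18 the ranges were 0.080 to 0.163 and -0.041 to 0.036, and for chromosome 1 they were 0.075 to 0.113 and -0.034 to 0.028. The nearest lines of the groups were closer on chromosome 17 than on these. Chromosome 15 varied by line in both groups, from -0.243 to 0.162 among MSCV lines and from -0.199 to 0.043 among BCR-ABL1 lines.

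**Figure D4:**
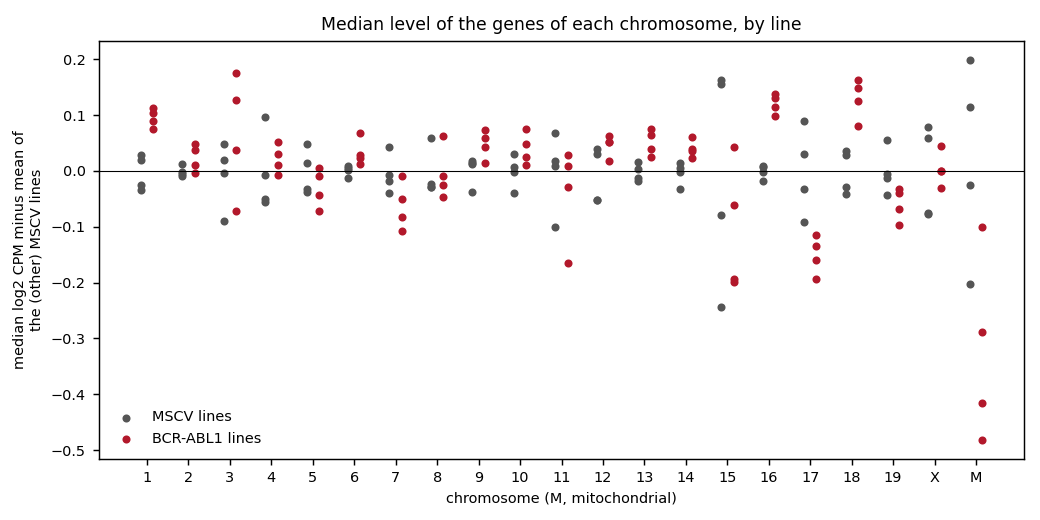
Median difference in log2 CPM of the protein-coding genes of each chromosome at 5 CPM or more, with 1 point per line, from the mean of the MSCV lines (for an MSCV line, of the other 3). On chromosome 17 all 4 BCR-ABL1 lines lie between -0.194 and -0.114, and on chromosome 16 between 0.098 and 0.137. On chromosome 15 the lines of both groups scatter.

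Lines of 1 group were not interchangeable. The root mean square distance of a line from its group mean was between 0.311 and 0.439 log2 units in MSCV lines, with line 2 the highest, and between 0.301 and 0.390 in BCR-ABL1 lines, with line 4 the highest. A 2-fold or greater range within the group was seen for 3651 genes in MSCV lines and 3370 in BCR-ABL1 lines. Ribosome biogenesis genes had list medians of 0.44, 0.06, -0.25 and -0.20 in MSCV lines 1 to 4 and of 0.56 to 0.77 in BCR-ABL1 lines. Chaperones showed the same split, as in Hspd1 at 248, 249.98, 147 and 153 CPM in MSCV lines 1 to 4, whereas its BCR-ABL1 lines lay within 376–396 CPM. BCR-ABL1 line 1 was nearest to the vector lines for AP-1 genes, with a list median of 0.18 against 0.85 to 1.18 in lines 2 to 4. For the synthetases the 4 BCR-ABL1 lines were alike, at 0.95, 1.10, 1.11 and 0.98.

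**Figure D5:**
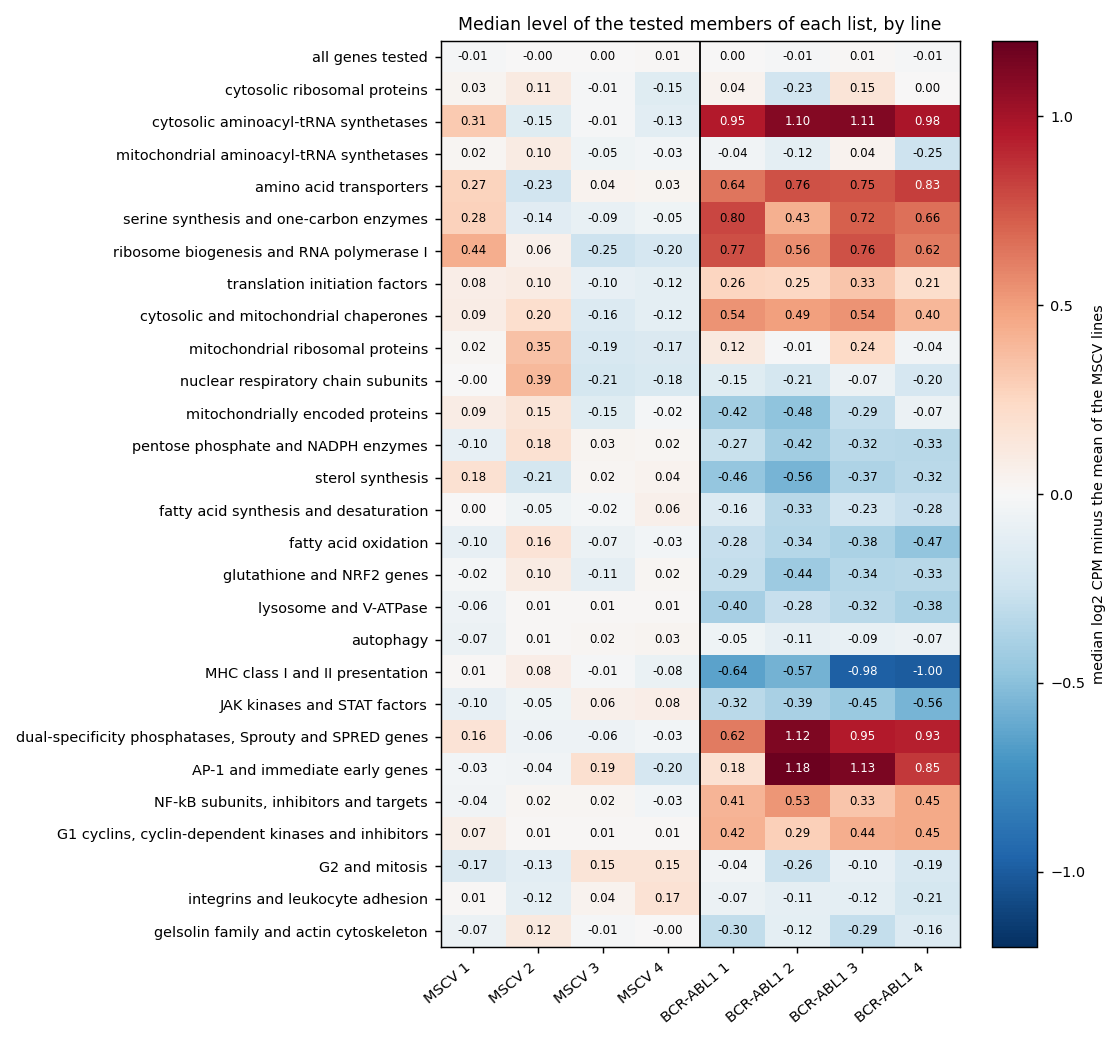
Median over the tested members of each list of the log2 CPM in a line minus the mean of the 4 MSCV lines, with red above and blue below that mean. Synthetase medians are 0.95 to 1.11 in all 4 BCR-ABL1 lines, and AP-1 medians are 0.18 in BCR-ABL1 line 1 and 0.85 to 1.18 in the others.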

How the data were processed

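Per the submitters' processing notes, Subread and featureCounts were used with the mm10 genome, with versions and annotation release not given in the sources used here. Raw read counts per gene, as the authors' counting made them and not normalized, fill the deposited table, with 1 column per library, and a second deposited table holds counts per exon, used for Abl1 alone. The sources used here do not give whether the counting used strand, so reads of overlapping and antisense genes, and of near-identical copies, may be shared. The 55471 gene identifiers were taken as listed, and 55144 of them had a name and position in the annotation (GENCODE M21) that was provided with the files.

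Genes were kept by edgeR's filterByExpr, leaving 17197. TMM factors were computed, and edgeR (4.0.16, R 4.3.3) modelled the 3 groups in all 12 libraries, with no other term. Two-sided quasi-likelihood tests compared BCR-ABL1 with MSCV, with Benjamini-Hochberg adjustment over all genes tested and a threshold of 0.05. A gene called higher or lower passed that threshold, and glmTreat tested for a change beyond 1.5-fold. Levels are TMM-scaled CPM computed here, and log2 CPM used a prior count of 2. SE is an approximate standard error, the size of the log2 change divided by the square root of the test's F statistic. CPM is not scaled to gene length, so levels were not compared between genes. The fit was tested on simulated data.

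Alternatives were DESeq2 (1.42.0), limma-voom (3.58.1), other scalings and filters, the 8 libraries alone, a block for the replicate number, and leaving out each line. Lines are treated as biologically independent, as the design text gives them, and no pair of libraries had counts alike within sampling noise. Gene lists and the genes named were chosen with earlier results of these data known. Genes were named from the called list members with the smallest adjusted p, list members with a stated role, genes of largest change in CPM or widest gap between groups, and long non-coding RNAs with the smallest adjusted p. Not every gene that these rules pick is named. The text gives values for 212 genes.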

Additional observations from a re-analysis of the deposited data

Results flagged for a closer look

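A line was set apart when its gap to the nearest of the other 3 lines, as a share of the range of its group, was above the 95% critical value of Dixon's test. Over the named genes 424 groups of 4 lines were examined and 27 were set apart, where chance sets apart about 1 in 20, or 21.2. BCR-ABL1 line 1 was the highest of its group for Farsa (112 CPM against 97 to 98.9, share 0.8605). BCR-ABL1 line 1 was the lowest of its group for Atf6 (97 CPM against 134 to 139, share 0.8879), Cd274 (30.7 CPM against 54.6 to 61.4, share 0.8297) and Mxd1 (14.4 CPM against 28.7 to 29.7, share 0.9504). BCR-ABL1 line 2 was the highest of its group for Ctsb (214 CPM against 181 to 185, share 0.8759). BCR-ABL1 line 2 was the lowest of its group for Ctps2 (59 CPM against 62.6 to 63, share 0.9063), Fads2 (119 CPM against 165 to 173, share 0.8755), Tkt (307 CPM against 393 to 403, share 0.9119), Il3ra (38.1 CPM against 46.3 to 46.9, share 0.9354) and S1pr4 (11.6 CPM against 14 to 14.4, share 0.8891). BCR-ABL1 line 3 was the lowest of its group for Irf5 (11.7 CPM against 12.5 to 12.7, share 0.8549), Itga4 (146 CPM against 219 to 235, share 0.8547) and Gm47469 (5.94 CPM against 7.13 to 7.36, share 0.8502). BCR-ABL1 line 4 was the lowest of its group for Slc43a2 (38.5 CPM against 54.1 to 57.9, share 0.8337), Hspd1 (376 CPM against 394 to 396, share 0.8838) and Spred2 (69.5 CPM against 84.4 to 85.8, share 0.9251). MSCV line 1 was the highest of its group for Rrn3 (67 CPM against 54.4 to 55.5, share 0.9061), Eif5 (388 CPM against 343 to 349, share 0.8785), Il4ra (62.8 CPM against 47.9 to 49.3, share 0.8946), Spred1 (76.8 CPM against 65.9 to 67.3, share 0.8653) and Snhg5 (74.1 CPM against 49.7 to 51.2, share 0.9219). MSCV line 1 was the lowest of its group for Idh1 (53.4 CPM against 78.2 to 81.5, share 0.9045) and Casp6 (35.3 CPM against 49.7 to 53.3, share 0.8291). MSCV line 2 was the highest of its group for Atp6v0d1 (177 CPM against 130 to 131, share 0.9613) and Pim2 (17.7 CPM against 13.8 to 14.2, share 0.8903). MSCV line 2 was the lowest of its group for Lag3 (17 CPM against 23.8 to 25.3, share 0.8456). MSCV line 4 was the highest of its group for Casp9 (34.6 CPM against 29.1 to 29.8, share 0.8714).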

How the results depend on the processing

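Against 5522 calls in the fit reported above, the alternatives that used all lines gave 5095 to 6307. DESeq2 called 6104 genes, upper-quartile scaling 5619, limma-voom 5429 and the 8 libraries alone 5117. Leaving out 1 line gave 4474 to 5350 calls, and 731 to 1093 in place of 980 beyond 1.5-fold. The direction depended somewhat on scaling: 49.3% of calls were higher as reported and 42.2% with upper-quartile scaling, where the median log2 change of all genes was -0.0579. Of the 5522 calls, 4370 to 4870 were kept when 1 line was left out. All 207 called genes named above passed with the same sign in each of the 16 alternatives that tested them. The named genes were thus steadier than the calls as a whole and do not stand for them. The folds of Il2ra and Gpr183 moved by over 1.5 times without BCR-ABL1 line 2, and that of Clec4e without MSCV line 4. With a replicate block 6307 genes were called, among them Myc, Csf2rb and Bcl2l11 as lower. The correlation of deviations between same-numbered lines of the 2 groups was 0.016, -0.006, 0.04 and 0.268. Between lines of unlike number it ran from -0.285 to 0.189. The sources used here do not give whether a number marks a shared batch, and such a batch was not tested. With 4 lines a group, small differences may have been missed.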
